A study of Mus musculus with 6 samples.

Results

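Cell cycle and proliferation genes were examined as a set of 42 genes, chosen by name from a list written for these libraries, out of 17524 genes in the deposited table. All 42 were found by symbol, and all 42 passed the filter on low counts that left 13565 genes for testing. By role, 13 act up to and during S phase and 29 act in G2 and mitosis. The question for this set is whether hearts that overexpress transcription factor EB (TFEB) hold more or less cell cycle RNA than control hearts after a coronary ligation.

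A cell that divides passes through G1, copies its DNA in S phase, prepares in G2 and separates its chromosomes in mitosis. E2F factors switch on the replication genes late in G1, and the MuvB complexes with B-MYB and FOXM1 switch on the mitotic genes later. Adult cardiomyocytes rarely divide. After an infarct most dividing cells of the heart are fibroblasts, endothelial cells and immune cells, and the RNA of mitotic genes is commonly read as a sign of their division. Replication genes are less specific, since MCM proteins and PCNA are also present in cells that do not go on to divide.

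RNA sequencing covered 6 heart libraries of mice with a ligated left anterior descending artery. The control group is 3 libraries labelled WT (35, 36 and 37, after the numbers in their titles). The TFEB overexpression group is 3 libraries (34, 41 and 43) from the R26-LSL-TFEB [+/+]; Acta2-cre line, in which Cre under the smooth muscle actin promoter switches on TFEB from the Rosa26 locus. That promoter is active in smooth muscle cells and in activated myofibroblasts. The sources used here do not say whether the controls carry Cre, nor give strain, age, sex or the time after ligation. The labels also name primary fibroblasts and fibrocytes, but Myh6, the main myosin of adult mouse heart muscle, stood at 37282, 29428 and 44208 CPM across controls 35, 36 and 37, against 23129, 35081 and 49163 CPM across TFEB 34, 41 and 43. Totals ran from 12942480 to 14969287 estimated counts. The labels do not say whether each library is a different animal, and p-values then measure only how far these samples spread, which may be technical. Tfeb itself stood at 34.4, 33.8 and 41.4 CPM across controls 35, 36 and 37, against 45.4, 45.3 and 39.4 CPM across TFEB 34, 41 and 43, a log2 fold change of 0.25 (SE 0.12) that did not pass the edgeR test (adjusted p = 1.00). TFEB 43 lay below control 37 in Tfeb, and the libraries are called by their labels throughout. TFEB 43 and control 37 stood apart from the other 4 libraries by their low values of scar matrix genes, and the medians of the members are also given with each library left out in turn. No fit left out both.

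No member passed the test between TFEB overexpression and control. By edgeR's quasi-likelihood test with Benjamini-Hochberg adjustment over 13565 genes, 0 of 42 were called at an adjusted p under 0.05, where 0% of all genes were called. The adjusted p of every member was 1.00. At an unadjusted p under 0.05, 0 of 42 members stood beside 1.21% of all genes (0.376% higher and 0.833% lower in TFEB overexpression), and DESeq2 and limma-voom also called 0 members. The 3 TFEB values overlapped the 3 control values in every member, so 0 of 42 were without overlap, where 4.75% of all genes were. Members with a fitted value above 0 numbered 23, where 51% of all genes had one. The median log2 fold change of the 42 was 0.01, and that of all genes was 0.003. The S-phase members had a median of 0.23, with 11 of 13 above 0, and the G2 and mitosis members a median of −0.05, with 12 of 29 above 0. Whether these medians differ was not tested.

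**Figure D1:**
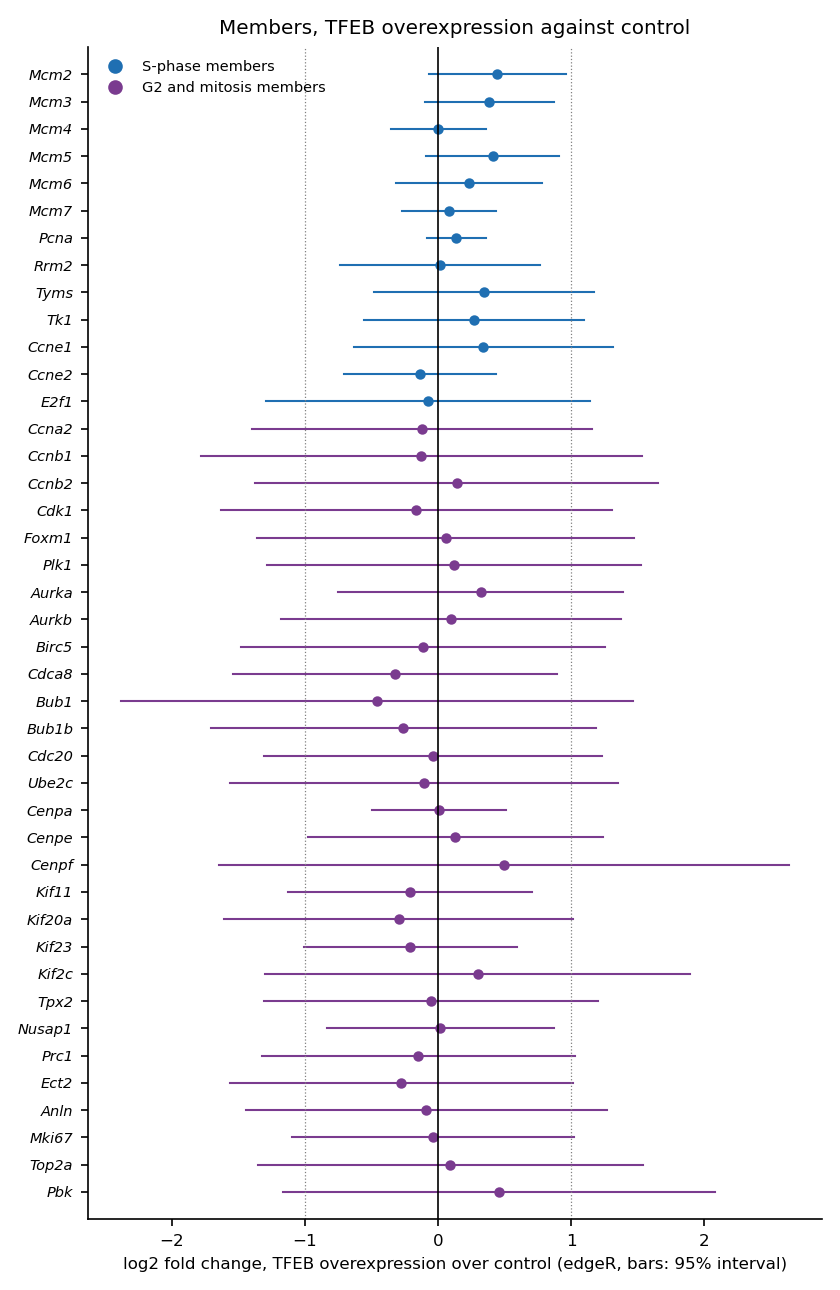
Log2 fold change of each member, TFEB overexpression over control, with bars for the 95% interval derived from the edgeR test (3 libraries per group). Dotted lines mark a 2-fold difference either way; every interval crosses 0, and the S-phase members have the narrower ones.

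How firmly a member can be placed differed between the phases. For 9 of 13 S-phase members the 95% interval of the ratio lay inside 2-fold in both directions, as it did for 78.7% of all genes. Among the 29 G2 and mitosis members this held for 2, Cenpa and Nusap1. The median biological coefficient of variation, the spread between libraries of a group that edgeR fits beyond counting error, was 0.22 for S-phase members, 0.47 for G2 and mitosis members and 0.19 over all genes. For most mitotic genes the interval thus reached a 2-fold difference in at least 1 direction. These intervals are not adjusted for the number of genes tested. A narrow interval therefore does not show that a 2-fold difference would have been called.

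Promoters of mitotic genes are known for a cell cycle homology region (CHR), which MuvB complexes bind, and for CCAAT boxes, which NF-Y binds, and promoters of replication genes for E2F sites. They are shown as a description of the members. Whether a motif goes with the level of a gene across the libraries was not tested. RefSeq windows from 250 bases before to 50 after the transcription start (GRCm38.p6, the mm10 assembly) were found for 34 of 42 members. Searched on both strands were the CHR (TTTGAA or TTTAAA), the CCAAT box (CCAAT) and an E2F site (TTTCCCGC, TTTCGCGC, TTTGCCGC or TTTGGCGC). A CHR was found in 21 of 23 G2 and mitosis members, 5 of 11 S-phase members and 30.6% of all 27025 genes with a window. Both a CHR and a CCAAT box were found in 18 of 23 G2 and mitosis members against 12.2% of all genes. An E2F site was found in 4 of 11 S-phase members, all of them MCM genes, in 1 of 23 G2 and mitosis members, Cdk1, and in 2.60% of all genes. A match is a run of letters and not a measured binding site.

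In the stretches printed here, all upstream of the annotated gene and read 5′ to 3′ along it, capitals mark these motifs. Ccnb1, Cdk1, Cdc20 and Top2a stand for mitotic members that were low in TFEB 43, Cenpa for one that was not, and Mcm6 and Mcm5 for the helicase.
Ccnb1, chr13:100786487-100786606, minus strand: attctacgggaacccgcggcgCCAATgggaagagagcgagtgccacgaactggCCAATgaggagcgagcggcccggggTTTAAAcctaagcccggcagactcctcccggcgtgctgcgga
Cdk1, chr10:69352913-69353062, minus strand: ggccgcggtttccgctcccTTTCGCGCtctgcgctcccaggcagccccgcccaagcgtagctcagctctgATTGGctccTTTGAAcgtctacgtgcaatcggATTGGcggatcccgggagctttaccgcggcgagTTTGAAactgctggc
Cdc20, chr4:118437344-118437463, minus strand: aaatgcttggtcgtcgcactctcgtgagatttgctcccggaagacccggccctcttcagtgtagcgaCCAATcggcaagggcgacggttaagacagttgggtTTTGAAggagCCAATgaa
Top2a, chr11:99024200-99024309, minus strand: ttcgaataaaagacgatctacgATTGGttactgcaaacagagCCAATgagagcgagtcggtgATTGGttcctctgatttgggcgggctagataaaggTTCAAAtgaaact
Cenpa, chr5:30666766-30666876, plus strand: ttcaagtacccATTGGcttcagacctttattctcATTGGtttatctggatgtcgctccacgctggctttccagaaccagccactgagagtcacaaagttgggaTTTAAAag
Mcm6, chr1:128359706-128359825, minus strand: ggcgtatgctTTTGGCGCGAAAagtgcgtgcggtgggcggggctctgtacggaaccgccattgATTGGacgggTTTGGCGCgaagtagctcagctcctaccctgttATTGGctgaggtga
Mcm5, chr8:75109349-75109467, plus strand: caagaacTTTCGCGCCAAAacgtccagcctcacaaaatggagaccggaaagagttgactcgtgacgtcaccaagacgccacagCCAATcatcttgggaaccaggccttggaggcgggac
The CHR of Ccnb1 begins 42 bases before the start, and its CCAAT boxes begin 99 and 67 bases before it. In Mcm6 and in Mcm5, 2 E2F sites on opposite strands overlap by 4 bases. The printed stretch of Cenpa holds a CHR and 2 CCAAT boxes. The window of Cenpf holds 2 CHRs and 2 CCAAT boxes. Among G2 and mitosis members with a window, no CHR was found in Bub1 and Nusap1. No CCAAT box was found in Birc5, Kif2c, Anln and Nusap1.

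Most replication genes had a fitted value above 0, by less than the test could call. The MCM2-7 proteins form the helicase that is loaded at origins in G1 and unwinds DNA in S phase. The log2 fold change was above 0 in 6 of its 6 genes, by only 0.0015 in Mcm4, with a median of 0.31, and 0 passed. Mcm2 (chromosome 6:88883474-88898780 in mm10, Entrez 17216) stood at 10.5, 8.21 and 6.85 CPM across controls 35, 36 and 37, against 9.61, 11.9 and 13.5 CPM across TFEB 34, 41 and 43. Its highest value was in TFEB 43 and its lowest in control 37, while control 35 lay above TFEB 34. The means were 8.53 ± 1.87 and 11.6 ± 1.94 CPM (SD, n = 3 each), a ratio of 1.36 (95% interval 0.951 to 1.95). The unadjusted edgeR p of 0.0803 was the smallest of the 42. Mcm3 (chromosome 1:20802966-20820312 in mm10, Entrez 17215) stood at 8.86, 10.3 and 7.70 CPM across controls 35, 36 and 37, against 12.3, 13.6 and 9.09 CPM across TFEB 34, 41 and 43, so that TFEB 34 and 41 lay above every control and TFEB 43 among them. Its log2 fold change was 0.38 (SE 0.20). For Mcm5 (chromosome 8:75109468-75128439 in mm10, Entrez 17218) the values were 5.30, 4.49 and 3.73 CPM in the controls, in the order 35, 36, 37, and 5.98, 6.74 and 5.29 CPM in TFEB 34, 41 and 43. Only the smallest TFEB value overlapped the controls, by less than 0.1 CPM, and the log2 fold change was 0.41 (SE 0.21). Mcm6 had 14.8, 16.2 and 13.2 CPM in the controls, in the order 35, 36, 37, and 21.7, 18.2 and 12.0 CPM in TFEB 34, 41 and 43, with its lowest value in TFEB 43 and a log2 fold change of 0.23 (SE 0.23). Without TFEB 43 that value was 0.44, and without TFEB 34 it was 0.04. With any 1 library left out, the log2 fold change ran from 0.31 to 0.63 for Mcm2, from 0.28 to 0.53 for Mcm3 and from 0.29 to 0.54 for Mcm5. Mcm4 and Mcm7 ran from 11.2 to 14.9 and from 12.4 to 16.7 CPM over the 6 libraries, and both were lowest in control 36 and highest in control 35. The helicase genes thus did not share an order of libraries.

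**Figure D2:**
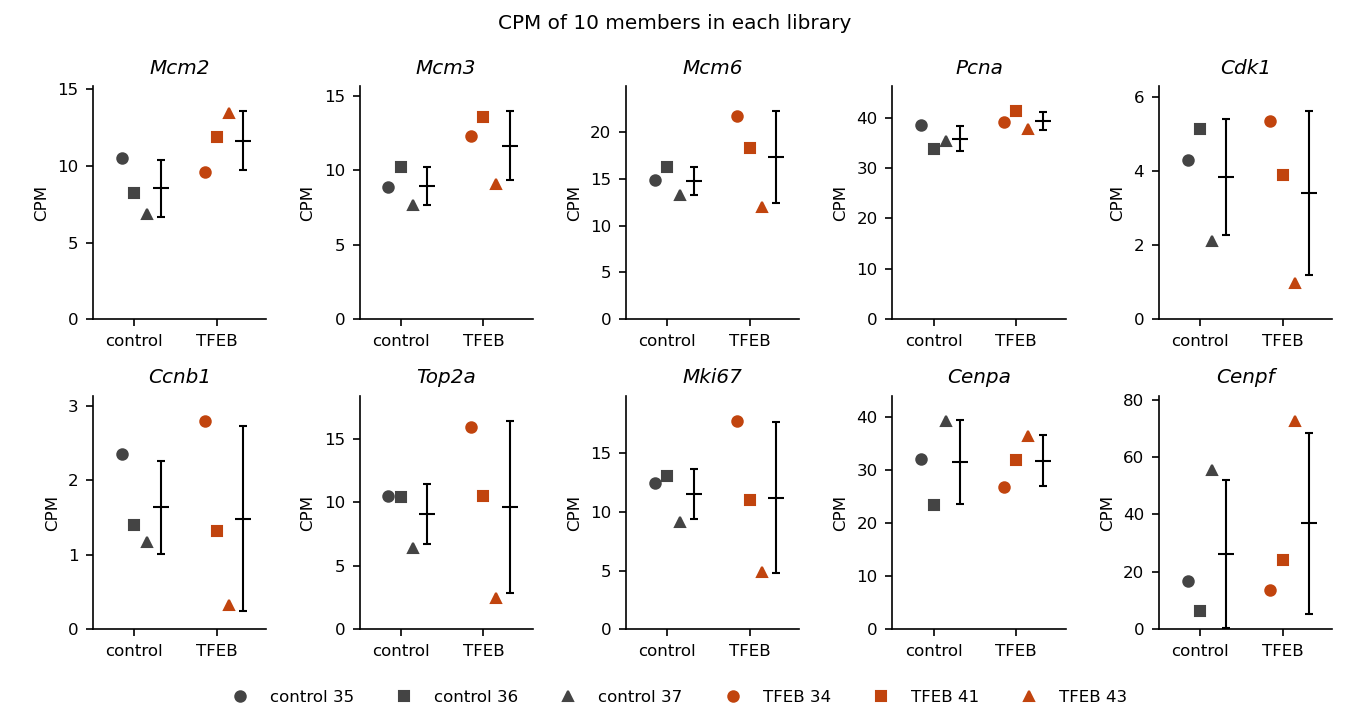
CPM of 10 members in each library, controls in grey and TFEB overexpression in red, with the mean and SD of each group (n = 3) in black; every axis starts at 0. TFEB 43 (red triangle) is the highest library for Mcm2 and Cenpf and the lowest for Mcm6, Cdk1, Ccnb1, Top2a and Mki67.

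PCNA, the sliding clamp of the DNA polymerases, varied little between libraries. Pcna (chromosome 2:132249286-132253180 in mm10, Entrez 18538) stood at 38.5, 33.7 and 35.3 CPM across controls 35, 36 and 37, against 39.1, 41.3 and 37.8 CPM across TFEB 34, 41 and 43. The means were 35.8 ± 2.45 and 39.4 ± 1.78 CPM (SD, n = 3 each), a ratio of 1.10 (95% interval 0.943 to 1.28). Rrm2, the cell cycle-regulated subunit of ribonucleotide reductase, was highest in control 35 and had a log2 fold change of 0.01 (SE 0.31). The thymidylate synthase gene Tyms had 6.38, 5.76 and 4.67 CPM in the controls, in the order 35, 36, 37, and 10.1, 7.10 and 4.05 CPM in TFEB 34, 41 and 43, and its log2 fold change of 0.34 (SE 0.34) became −0.0042 without TFEB 34. Rrm2 and Tyms were named after their values were seen. The thymidine kinase gene Tk1 ran from 1.63 CPM in control 37 to 3.56 CPM in TFEB 34. Of the genes that drive entry into S phase, the cyclin E genes did not move with the mitotic ones. Ccne2 had 2.48, 3.37 and 3.66 CPM in the controls, in the order 35, 36, 37, and 2.67, 2.93 and 3.06 CPM in TFEB 34, 41 and 43, with a log2 fold change of −0.13 (SE 0.24). Ccne1 was highest in TFEB 43, at 2.40 CPM, and lowest in control 37, at 0.856 CPM. E2f1, the transcription factor that activates replication genes, was lowest in TFEB 43, at 0.826 CPM, against 3.12 CPM in TFEB 34. The log2 fold changes of Tk1, Ccne1 and E2f1 were 0.27 (SE 0.34), 0.34 (SE 0.40) and −0.08 (SE 0.51).

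Genes of mitotic entry varied several-fold between libraries of the same genotype. Cyclins A2, B1 and B2 activate CDK1, FOXM1 drives transcription of the mitotic genes, and the kinases PLK1 and Aurora A build the spindle poles. Cdk1 (chromosome 10:69335146-69352912 in mm10, Entrez 12534) stood at 4.29, 5.13 and 2.1 CPM across controls 35, 36 and 37, against 5.34, 3.88 and 0.992 CPM across TFEB 34, 41 and 43, which rests on 12 counts in TFEB 43 and 84 in TFEB 34. TFEB 34 was the highest library and TFEB 43 the lowest, and the 3 controls lay between them. Averages were 3.84 ± 1.56 and 3.41 ± 2.22 CPM (SD, n = 3 each), a ratio of 0.892 (95% interval 0.322 to 2.47). Ccnb1 (chromosome 13:100778739-100786486 in mm10, Entrez 268697) had 2.35, 1.4 and 1.17 CPM in the controls, in the order 35, 36, 37, and 2.80, 1.32 and 0.331 CPM in TFEB 34, 41 and 43, from 4 counts in TFEB 43 to 44 in TFEB 34, and a log2 fold change of −0.13 (SE 0.69). Ccna2 followed with 6.98, 5.83 and 3.35 CPM in the controls, in the order 35, 36, 37, and 7.19, 5.86 and 1.74 CPM in TFEB 34, 41 and 43 and a log2 fold change of −0.12 (SE 0.53). For Foxm1 the values were 3.15, 4.49 and 1.71 CPM in the controls, in the order 35, 36, 37, and 5.73, 2.64 and 1.32 CPM in TFEB 34, 41 and 43, and the log2 fold change was 0.06 (SE 0.59). In all 7 genes of this group TFEB 34 was the highest library, and in 6 TFEB 43 was the lowest; Aurka, at 1.16 CPM in TFEB 43, was lowest in control 37, at 1.01 CPM. The other 3, Ccnb2, Plk1 and Aurka, ran from 0.578 to 3.44 CPM over the libraries, with log2 fold changes from 0.12 (Plk1) to 0.32 (Aurka). Together the 7 genes gave 483 counts in TFEB 34 and 84 in TFEB 43, and 357 in control 35 and 146 in control 37.

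The chromosomal passengers, which correct the attachment of chromosomes (Aurkb, Birc5, Cdca8), the checkpoint kinases Bub1 and Bub1b, and Cdc20 and Ube2c, which act in the anaphase-promoting complex that ends mitosis, were lowest in TFEB 43 in 7 of 7. Bub1b, the most abundant of them by CPM, had 5.97, 4.42 and 2.64 CPM in the controls, in the order 35, 36, 37, and 5.28, 4.54 and 0.992 CPM in TFEB 34, 41 and 43. Its log2 fold change was −0.26 (SE 0.60), and its highest value was that of control 35. The other 6 ran from 0.331 to 4.16 CPM over the libraries, with log2 fold changes from −0.46 (Bub1) to 0.10 (Aurkb). The 7 genes gave 340 counts in TFEB 34, 62 in TFEB 43, 341 in control 35 and 122 in control 37. By CPM they ran from 1.97 to 5.28 in TFEB 34 and from 0.331 to 1.07 in TFEB 43.

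Genes of the spindle and of cytokinesis had the same highest and lowest libraries in most cases. These are the kinesin motors Kif11, Kif20a, Kif23 and Kif2c, the microtubule proteins Tpx2, Nusap1 and Prc1, and Ect2 and Anln, which set up the contractile ring. TFEB 43 was the lowest library in 9 of 9 and TFEB 34 the highest in 8 of 9, Kif23 being highest in control 36. Anln, the most abundant by CPM, had 8.59, 6.88 and 5.13 CPM in the controls, in the order 35, 36, 37, and 11.1, 6.22 and 1.98 CPM in TFEB 34, 41 and 43, a 5.58-fold range within the TFEB overexpression group. Its group means nevertheless lay close together, at 6.87 ± 1.73 and 6.43 ± 4.55 CPM (SD, n = 3 each), a ratio of 0.941 (95% interval 0.367 to 2.41). The other 8 ran from 0.248 to 7.0 CPM over the libraries, with log2 fold changes from −0.30 (Kif20a) to 0.30 (Kif2c). The 9 genes gave 768 counts in TFEB 34 and 165 in TFEB 43.

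The proliferation markers Mki67 (Ki-67, a coat of mitotic chromosomes), Top2a (the topoisomerase that untangles sister chromatids) and the mitotic kinase gene Pbk repeated the pattern. Mki67 (chromosome 7:135689784-135716450 in mm10, Entrez 17345) stood at 12.5, 13.1 and 9.10 CPM across controls 35, 36 and 37, against 17.8, 11.0 and 4.88 CPM across TFEB 34, 41 and 43. The means were 11.5 ± 2.14 and 11.2 ± 6.44 CPM (SD, n = 3 each), a ratio of 0.974 (95% interval 0.468 to 2.03). Top2a (chromosome 11:98992947-99024199 in mm10, Entrez 21973) stood at 10.5, 10.4 and 6.38 CPM across controls 35, 36 and 37, against 16.0, 10.5 and 2.48 CPM across TFEB 34, 41 and 43, a range of 6.44-fold, and averaged 9.08 ± 2.34 and 9.64 ± 6.78 CPM (SD, n = 3 each), giving a log2 fold change of 0.09 (SE 0.60). For both genes the spread within the TFEB overexpression group exceeded the distance between the groups. Pbk ran from 0.331 to 2.48 CPM over the libraries, with a log2 fold change of 0.46 (SE 0.67). In TFEB 43, Top2a was at its lowest and Mcm2 at its highest of the 6 libraries.

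Of the 29 G2 and mitosis members, 2 ran against the others. Cenpa (chromosome 5:30666877-30674837 in mm10, Entrez 12615), the histone H3 variant that marks centromeres, had 31.9, 23.4 and 39.2 CPM in the controls, in the order 35, 36, 37, and 26.8, 31.9 and 36.4 CPM in TFEB 34, 41 and 43. Its lowest value was in control 36, and the groups averaged 31.5 ± 7.89 and 31.7 ± 4.79 CPM (SD, n = 3 each), giving a ratio of 1.00 (95% interval 0.707 to 1.43). Cenpf (chromosome 1:189640606-189688107 in mm10, Entrez 108000), a kinetochore and nuclear matrix protein, was named after its values were seen. It stood at 16.6, 6.46 and 55.3 CPM across controls 35, 36 and 37, against 13.7, 24.2 and 72.6 CPM across TFEB 34, 41 and 43. Like Cenpa, it was highest in control 37 and TFEB 43, the 2 libraries where most other mitotic genes were lowest. Its counts come from 2 transcript models, with 69.8% of them in the leading model. The log2 fold change was 0.49 (SE 0.89), or −0.46 without TFEB 43 and 1.67 without control 37. The third gene of this group, Cenpe, a kinesin of the kinetochore, ran with the mitotic genes, from 1.16 CPM in TFEB 43 to 3.88 CPM in TFEB 34.

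**Figure D3:**
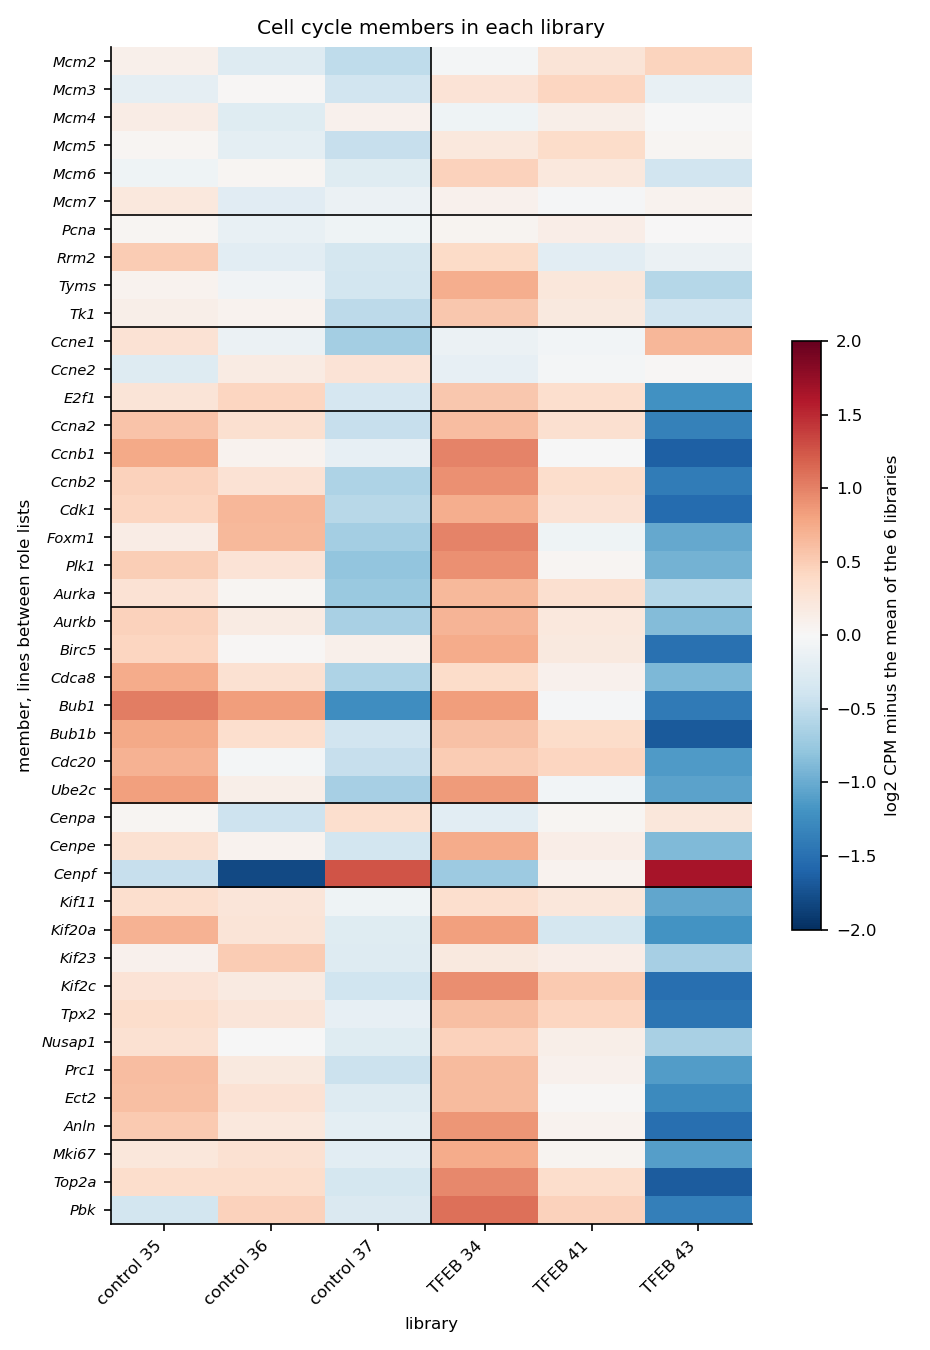
Level of each member in each library as log2 CPM minus its mean over the 6 libraries, blue low and red high. Values past 2 take the end colour. Lines part the role lists, which follow the text except that the centromere and kinetochore genes come before the spindle genes. The TFEB 43 column is blue for most mitotic members and near white for the MCM genes, and Cenpf runs the other way.

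Across the 29 G2 and mitosis members, TFEB 43 was the lowest library in 26 and TFEB 34 the highest in 22. Over all genes tested these libraries were lowest in 25.5% and highest in 26.8%. Among the 13 S-phase members the counts were 3 and 4. Control 37 was the lowest control in 25 of 29, where it was in 35.7% of all genes. These libraries were picked out after the values were seen, and genes measured in the same 6 libraries are not independent observations. The median ratio of TFEB 34 to TFEB 43 was 4.2 for G2 and mitosis members, 1.13 for S-phase members and 1.00 over all genes. The level of a list, the mean log2 CPM of its genes relative to the mean of the 6 libraries, was 0.64, 0.17 and −1.05 in TFEB 34, 41 and 43 and 0.41, 0.18 and −0.34 in controls 35, 36 and 37 for G2 and mitosis members. For S-phase members it was 0.22, 0.15 and −0.12 in TFEB 34, 41 and 43 and 0.09, −0.06 and −0.29 in controls 35, 36 and 37. In bulk tissue, fewer dividing cells and less of this RNA per cell cannot be told apart.

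**Figure D4:**
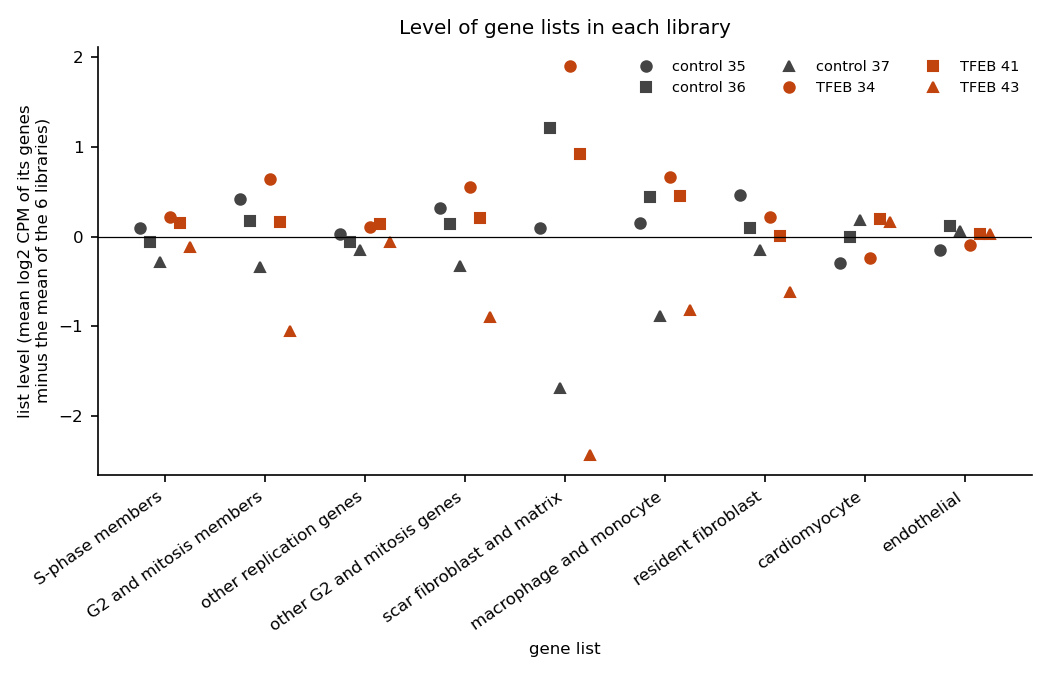
Level of 9 gene lists in each library (mean log2 CPM of the tested genes of a list minus the mean of the 6 libraries), controls in grey and TFEB overexpression in red. For mitotic genes, matrix and macrophage lists the triangles (control 37 and TFEB 43) are the lowest points, while the cardiomyocyte and endothelial lists stay within 0.3 of 0.

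In their level, the matrix, macrophage and resident fibroblast lists were lowest in control 37 and TFEB 43, like the mitotic members. The other marker lists were not. The scar fibroblast and matrix list (12 of 12 tested) had levels of 1.89, 0.92 and −2.44 in TFEB 34, 41 and 43 and 0.10, 1.21 and −1.68 in controls 35, 36 and 37. Its summed level ran from 2983 to 14952 CPM in control and from 2182 to 24527 CPM in TFEB overexpression, led by Col3a1. It was lowest in TFEB 43 in 12 of 12 genes and highest in TFEB 34 in 11. The macrophage and monocyte list (13 of 14 tested) had levels of 0.66, 0.45 and −0.82 in TFEB 34, 41 and 43 and 0.15, 0.44 and −0.88 in controls 35, 36 and 37, with sums from 551 to 1003 CPM in control and from 493 to 1395 CPM in TFEB overexpression, led by Lyz2. Resident fibroblast markers had summed levels from 3464 to 5389 and from 3173 to 3482 CPM, led by Gsn, with the lowest list level in TFEB 43 (−0.62). The cardiomyocyte list ran from 89785 to 119552 CPM in control and from 74042 to 132759 CPM in TFEB overexpression. Within the groups its sum was highest in control 37 and TFEB 43, and TFEB 34 had the lowest sum of all libraries. Endothelial markers, led by Fabp4, spanned 1791 to 2205 and 1800.3 to 2033 CPM, and smooth muscle and pericyte markers, led by Rgs5, 1537 to 2014 and 2115 to 2258 CPM. Both had their lowest sums in control 35 and TFEB 34 within the groups. By level, the smooth muscle and pericyte list was 0.38, 0.28 and −0.24 in TFEB 34, 41 and 43. In controls 35, 36 and 37 it was −0.32, 0.01 and −0.11. Its sums did not overlap between the groups. In 10 of its 10 genes the fitted value was above 0, beside 51% of all genes. Acta2 alone of them had no overlap, higher in TFEB overexpression, as were 2.24% of all genes, and did not pass the edgeR test. Erythroid genes, led by Hbb-bs (7 of 8 tested), spanned 827 to 4003 and 986 to 3349 CPM, with the highest sums in control 37 and TFEB 34. Neutrophil and lymphocyte markers, led by Csf3r and Cd4, summed to at most 11.8 CPM in any library, with 3 tested genes each. No marker was at 0 counts in all libraries. The part of these cell types in the levels of the cell cycle genes was not tested.

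The direction of the mitotic members depended on single libraries, and that of the S-phase members less so. The median log2 fold change of the 29 was −0.05 over all libraries, 0.31 without TFEB 43 (25 of 29 above 0) and −0.50 without TFEB 34 (3 of 29). It was 0.11 without control 35 (23 of 29), −0.23 without control 37 (5 of 29), −0.01 without control 36 (13 of 29) and −0.03 without TFEB 41 (11 of 29). For S-phase members the 6 fits gave medians from 0.05 (without TFEB 34) to 0.34 (without control 35), with 9 to 12 of 13 above 0. With the level of the matrix list as a covariate the medians were −0.32 for G2 and mitosis members and 0.15 for S-phase members, and with the cardiomyocyte level 0.03 and 0.27. No member was called by edgeR in any of these 8 fits. Unadjusted p under 0.05 were found for Mcm3, Mcm6 and Tyms without TFEB 43, where 581 of 13804 genes had one, for Mcm2 without control 35 (97 of 13678 genes) and without TFEB 34 (231 of 13709), and for Mcm3 with the matrix covariate (485 of 13565).

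The rest of the cell cycle machinery was read from lists drawn up by function, and none of their genes passed the test. Of 33 other replication genes 32 were tested, 25 of them above 0 (median 0.10), and 4 had no overlap, all higher in TFEB overexpression, where 2.24% of all genes did. By log2 fold change, the 3 with the smallest p were the polymerase genes Pold1 at 0.24 (SE 0.14) and Pola2 at 0.19 (SE 0.12) and the replication initiation gene Mcm10 at 0.63 (SE 0.39). Of 42 other G2 and mitosis genes 39 were tested, 21 of them above 0 (median 0.03). Lmnb1 alone of these had no overlap, higher in TFEB overexpression, beside the same 2.24% of all genes. As among the members, TFEB 43 was the lowest library in 30 of 39 of these genes and TFEB 34 the highest in 22. There the log2 fold changes of the 3 with the smallest p, the lamin gene Lmnb1 at 0.24 (SE 0.14), the histone variant gene H2ax at 0.39 (SE 0.24) and the kinetochore gene Spc24 at 0.37 (SE 0.24), were all above 0. S-phase DNA repair genes (16 of 18 tested, 10 above 0, median 0.01) included, by log2 fold change, the checkpoint kinase gene Chek1 at 0.51 (SE 0.27), its adaptor Clspn at 0.79 (SE 0.52) and the recombination gene Rad54l at 0.49 (SE 0.32). Chek1 alone of the repair genes had no overlap, higher in TFEB overexpression, again beside 2.24% of all genes.

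**Figure D5:**
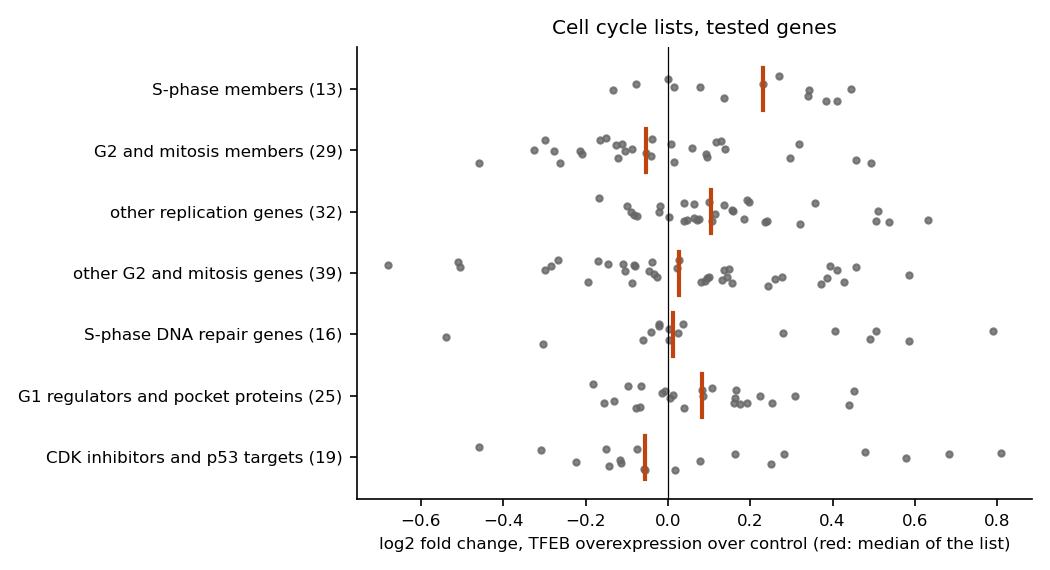
Log2 fold change of every tested gene of 7 cell cycle lists, TFEB overexpression over control, with the number tested in brackets and the median of each list in red; vertical positions within a list are arbitrary. The S-phase members and the other replication genes have medians of 0.23 and 0.10, and the others lie between −0.06 and 0.08.

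G1 regulators decide whether a cell enters the cycle. Of 25 tested, 16 were above 0 (median 0.08) and 2 had no overlap, Ccnd3 and Cdk4, both higher in TFEB overexpression, as were 2.24% of all genes. Ccnd3 (cyclin D3) stood at 58.0, 60.0 and 59.7 CPM across controls 35, 36 and 37, against 68.3, 66.4 and 64.3 CPM across TFEB 34, 41 and 43, a log2 fold change of 0.16 (SE 0.08). Its partner kinase gene Cdk4 had 47.8, 46.4 and 45.7 CPM in the controls, in the order 35, 36, 37, and 56.1, 51.7 and 48.8 CPM in TFEB 34, 41 and 43, a log2 fold change of 0.16 (SE 0.09). Ccnd1 (cyclin D1), the classic growth factor-responsive cyclin, had 42.9, 62.9 and 68.3 CPM in the controls, in the order 35, 36, 37, and 58.3, 96.1 and 83.8 CPM in TFEB 34, 41 and 43, a log2 fold change of 0.45 (SE 0.24). Ccnd2, the most abundant of the D-type cyclin genes by CPM, had a log2 fold change of −0.01 (SE 0.13), Rb1, the retinoblastoma protein that restrains E2F factors, one of 0.005 (SE 0.09), and Mybl2 (B-MYB) one of 0.17 (SE 0.45). Differences of this size in Ccnd3 and Cdk4 did not pass the edgeR test (adjusted p = 1.00 for both).

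Inhibitors of the cyclin-dependent kinases and p53 targets were split, with 9 of 19 tested genes above 0 (median −0.06) and 2 without overlap, both lower in TFEB overexpression, where 2.51% of all genes were. These were Cdkn1b (p27), which holds cells in quiescence, at 57.0, 51.0 and 52.9 CPM across controls 35, 36 and 37, against 49.6, 48.5 and 50.6 CPM across TFEB 34, 41 and 43, and the CDK4/6 inhibitor gene Cdkn2c (p18), at 16.6, 14.5 and 14.2 CPM across controls 35, 36 and 37, against 13.9, 12.1 and 10.6 CPM across TFEB 34, 41 and 43. Their log2 fold changes were −0.11 (SE 0.08) and −0.31 (SE 0.15). Cdkn1a (p21), the p53-induced inhibitor, had 73.3, 57.8 and 36.7 CPM in the controls, in the order 35, 36, 37, and 74.1, 34.4 and 13.2 CPM in TFEB 34, 41 and 43. It was highest in TFEB 34 and lowest in TFEB 43, the order of the mitotic genes, and its log2 fold change was −0.46 (SE 0.59). That value was −0.04 without TFEB 43, −1.23 without TFEB 34 and −0.69 without control 37. Trp53 itself had a log2 fold change of 0.28 (SE 0.14), and the stress kinase gene Plk3 one of 0.81 (SE 0.43), which ran from 0.39 to 1.22 with 1 library left out.

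Per length, Pcna and Cenpa were the most abundant members. Mean TPM over the 6 libraries, which is scaled for transcript length, was 62.5 for Pcna, 54.7 for Cenpa and 10.9 for Mcm7, and 3.19 for Top2a, 2.08 for Mki67, 1.50 for Cdk1 and 0.537 for Cenpe, the lowest member. Of 252 counts of a member in a library, 12 were under 10, of which 9 were in TFEB 43 and 3 in control 37. The gene bodies of 12 members overlap another protein-coding gene, namely Mcm7, Tk1, Ccne2, E2f1, Ccna2, Foxm1, Aurka, Cdc20, Kif20a, Nusap1, Prc1 and Anln. Their counts can depend on how the authors' quantification divided reads between the overlapping genes.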

How the data were processed

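RNA sequencing was done on 6 mouse heart libraries. The authors' deposited table lists 62498 RefSeq transcripts. Per the file headers it holds read counts, which are estimated counts, and TPM, which the authors scaled for transcript length and library. The submitters' processing notes name HISAT2 2.1.0, Bowtie2 2.3.4.3, RSEM 1.3.1, DESeq2 1.4.5 and mm10. The sources used here do not give the strand setting or annotation release.

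Estimated counts were summed per Entrez gene and rounded, which gave 17524 genes. Symbols and positions came from RefSeq (GRCm38.p6). Groups were compared with edgeR 4.0.16 in R 4.3.3 (filterByExpr, TMM, quasi-likelihood test, two-sided, Benjamini-Hochberg over 13565 genes, called at an adjusted p under 0.05). CPM is scaled by library total and TMM factor, and list levels use log2 CPM with a prior count of 2. The smallest two-sided p of an exact permutation test of 3 against 3 is 0.1, and none was run. Alternatives were RLE and upper-quartile scaling, DESeq2 1.42.0, limma-voom and limma-trend (limma 3.58.1) on log2(TPM + 1) and log2(TPM + 0.1) with TPM of at least 1 in 3 libraries, no filter, at least 10 counts in 3 libraries, 2 covariates and each library left out. The scripts were checked on simulated data. The members and lists were chosen with earlier results of these data known. Named were the members with the 3 smallest p, the highest by CPM of each role list and 7 standard ones, 3 genes per pathway list by p with 7 fixed ones, and the highest by CPM of each marker list. All 42 members are accounted for. Members and genes named outside this rule, such as Tk1, Ccne1, E2f1, Cenpe, Pbk and Aurka, were picked after their values were seen.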

Additional observations from a re-analysis of the deposited data

How the results depend on the processing

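No alternative called a member. The edgeR count of called genes was 0 over all libraries and in every fit with a library left out; DESeq2 called 1 gene, Ddit4, named because the count is small, and 164 genes had an unadjusted p under 0.05. RLE scaling, DESeq2, no filter and at least 10 counts in 3 libraries changed no direction of a named gene. With a library left out the medians of the members ran from −0.35 to 0.31 for all 42, from 0.05 to 0.34 for S-phase members and from −0.50 to 0.31 for G2 and mitosis members. Limma-voom gave medians of 0.21 and −0.16 for these phases, and log2(TPM + 0.1) 0.21 and −0.20. Named genes that changed direction were Foxm1 at −0.0378, Top2a at −0.16, Ccnd2 at 0.0062 and Lyz2 at −0.0301 by limma-voom; Foxm1 at −0.0024, Top2a at −0.0698, Ccnd2 at 0.0109 and Hbb-bs at 0.0188 on log2(TPM + 1); Foxm1 at −0.0628, Top2a at −0.21, Ccnd2 at 0.0113 and Hbb-bs at 0.0188 on log2(TPM + 0.1); Ccna2 at 0.0266, Cenpa at −0.0464, Mki67 at 0.0127, Ccnd2 at 0.0258, Rb1 at −0.0096 and Rgs5 at −0.0087 with the cardiomyocyte covariate; Foxm1 at −0.19, Top2a at −0.32, Col3a1 at −0.09, Lyz2 at −0.10 and Rrm2 at −0.0177 with the matrix covariate; Ccnd2 at 0.0002 under upper-quartile scaling. With a library left out, log2 fold changes that crossed 0 were Ccna2 from −0.50 to 0.27, Ccnb1 from −0.97 to 0.33, Cdk1 from −0.65 to 0.26, Foxm1 from −0.65 to 0.42, Bub1b from −0.64 to 0.17, Cenpa from −0.17 to 0.19, Anln from −0.74 to 0.33, Mki67 from −0.54 to 0.32, Top2a from −0.48 to 0.54, Ccnd2 from −0.12 to 0.0576, Rb1 from −0.0373 to 0.0431, Mybl2 from −0.14 to 0.46, Myh6 from −0.35 to 0.19, Col3a1 from −0.29 to 0.86, Lyz2 from −0.39 to 0.47, Rgs5 from −0.078 to 0.0816, Hbb-bs from −0.79 to 0.85, Cenpf from −0.46 to 1.67, Tyms from −0.0042 to 0.62, Rrm2 from −0.20 to 0.34 and Pttg1 from −0.29 to 0.0794. None of these values passed a test, and the cause was not tested. On TPM, 39 members passed the filter. No paired analysis was possible because the groups share no replicate numbers. Counts under 10 in TFEB 43 limit the mitotic genes there.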

Other observations

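Some genes of the wider lists were not lowest in TFEB 43, unlike most mitotic members, and were picked for it after their values were seen. This is usual in the lists of Ung and Gadd45a. TFEB 43 was lowest in 6 of 32 tested other replication genes and 6 of 19 tested inhibitors and p53 targets, beside 25.5% of all genes. Pttg1, the securin gene that restrains chromosome separation, stood at 65.4, 47.4 and 74.5 CPM across controls 35, 36 and 37, against 41.9, 60.3 and 71.6 CPM across TFEB 34, 41 and 43, a log2 fold change of −0.11 (SE 0.24). Ung, the uracil DNA glycosylase gene, had 10.8, 14.5 and 14.9 CPM in the controls, in the order 35, 36, 37, and 10.7, 18.3 and 29.6 CPM in TFEB 34, 41 and 43, with its highest value in TFEB 43 and a log2 fold change of 0.54 (SE 0.36), or 0.11 without TFEB 43. The stress gene Gadd45a had 10.7, 11.2 and 18.7 CPM in the controls, in the order 35, 36, 37, and 14.5, 17.6 and 28.7 CPM in TFEB 34, 41 and 43, a log2 fold change of 0.58 (SE 0.33), or 0.24 without TFEB 43 and 0.88 without control 37. None passed the edgeR test (adjusted p = 1.00 for each).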
